A study of Mus musculus with 15 samples.

Results

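Gene expression in sorted kidney fibroblasts was compared between day 7 and day 3 after folic acid, with 3 arrays at each day, 6 of the 15 arrays of the series. All measured genes entered, each through 1 probe set: the one with the highest mean over the 15 arrays among those whose annotation named exactly 1 gene. This gave 17097 genes, and the 13523 that were not dim were tested. Both groups were adult C57BL/6 mice with acute kidney injury induced by folic acid, and the cells were PDGFRa-positive fibroblasts isolated from kidney by flow cytometry. The only difference between them that the labels give is the time of isolation, day 3 or day 7. The other groups, used here for the estimate of the spread and for levels set beside the comparison, were the same sorted cells at folic acid day 14, at day 14 of unilateral ureteral obstruction (UUO), and from uninjured kidney, with 3 arrays each. Arrays carry the running numbers of the labels, 1 to 3 at day 3 and 4 to 6 at day 7. The RNA was amplified from 20 ng before labelling. The labels do not say that each array is its own animal, so a p-value here reflects the spread among arrays of a group, part of which may be technical.

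Folic acid at high dose injures the tubule epithelium. Interstitial fibroblasts then divide, take on contractile features and lay down collagen, while monocytes enter the tissue and mature into macrophages that clear debris. MHC class II molecules, which display peptides to T cells, are made mainly by professional antigen-presenting cells such as macrophages and dendritic cells and can be induced in other cells by interferon gamma. Comparing day 7 with day 3 follows how the sorted cells differed between an early and a later point of this course.

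Values are log2 intensities, so a difference of 1 is a 2-fold difference, and each change is given as day 7 minus day 3 with its standard error (SE). A gene was called where the adjusted p of limma's moderated test, by Benjamini-Hochberg over all genes tested, lay under 0.05. Over the 6 arrays the values ran from 2.45 to 13.1 and the medians from 4.93 to 5.01. The median SD of a gene over 3 arrays was 0.242 at day 3 and 0.291 at day 7. Across genes, which are not independent replicates, day 3 arrays correlated at 0.931 to 0.937 with one another and day 7 arrays at 0.863 to 0.902. The day 7 arrays stood apart from one another, since they correlated with the day 3 arrays over nearly the same range, 0.867 to 0.907. Array 6 was the nearest to day 3 (0.896 to 0.907) and array 4 the farthest (0.867 to 0.874).

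Pdgfra, the gene of the sorting marker, read 6.76, 6.11 and 7.20 at day 3 and 4.96, 4.89 and 6.65 at day 7. The groups overlapped through array 6, and the difference of -1.19 (SE 0.59) did not pass (limma adjusted p = 0.496). Of 15 fibroblast identity genes, 1 was called, the gelatinase Mmp2, and their median change was -0.10. The mean of the list was 7.96 to 8.34 at day 3 and 8.21 to 8.81 at day 7, against 5.35 to 5.95 in uninjured kidney. The fibrillar collagen gene Col1a1 was bright at both days and read 11.88, 12.09 and 12.18 at day 3 and 11.70, 12.02 and 11.78 at day 7. Tubule transcripts were also present, and unevenly so at day 7. The mean of 15 proximal tubule markers was 6.33 to 6.71 at day 3, 8.41, 6.74 and 5.43 in arrays 4, 5 and 6, and 8.22 to 9.61 in uninjured kidney. Uninjured levels given below therefore come from arrays with more tubule signal and a lower mean of the fibroblast list, whose part in them was not tested. Pdgfra itself read 6.43, 5.68 and 5.91 in uninjured kidney. In sorted bulk samples, fewer cells of a type and less RNA per cell cannot be told apart.

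In all, 94 genes were called, which is 0.695% of those tested. Of these 37 were higher at day 7 (0.274%) and 57 lower (0.422%), and 88 differed at least 2-fold. For every one of the 94 the 3 day 7 values and the 3 day 3 values did not overlap. Over all genes tested, all day 7 values lay above all day 3 values in 6.39% and below them in 7.85%, and the median change was -0.01. Of all genes tested, 48.6% differed by more than 0. At an unadjusted p under 0.05, 4.68% of genes were higher and 6.37% lower. The number called was 75, 31 and 180 without day 7 arrays 4, 5 and 6, and 40, 44 and 50 without day 3 arrays 1, 2 and 3. It was 16 when the fit used only the 6 arrays compared, 51 when the mean of the macrophage markers entered as a covariate and 170 when that of the proximal tubule markers did. Genes named without a call, beyond a fixed panel and the 2 with the smallest p of each list that had no call, were chosen after their values were seen.

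**Figure D1:**
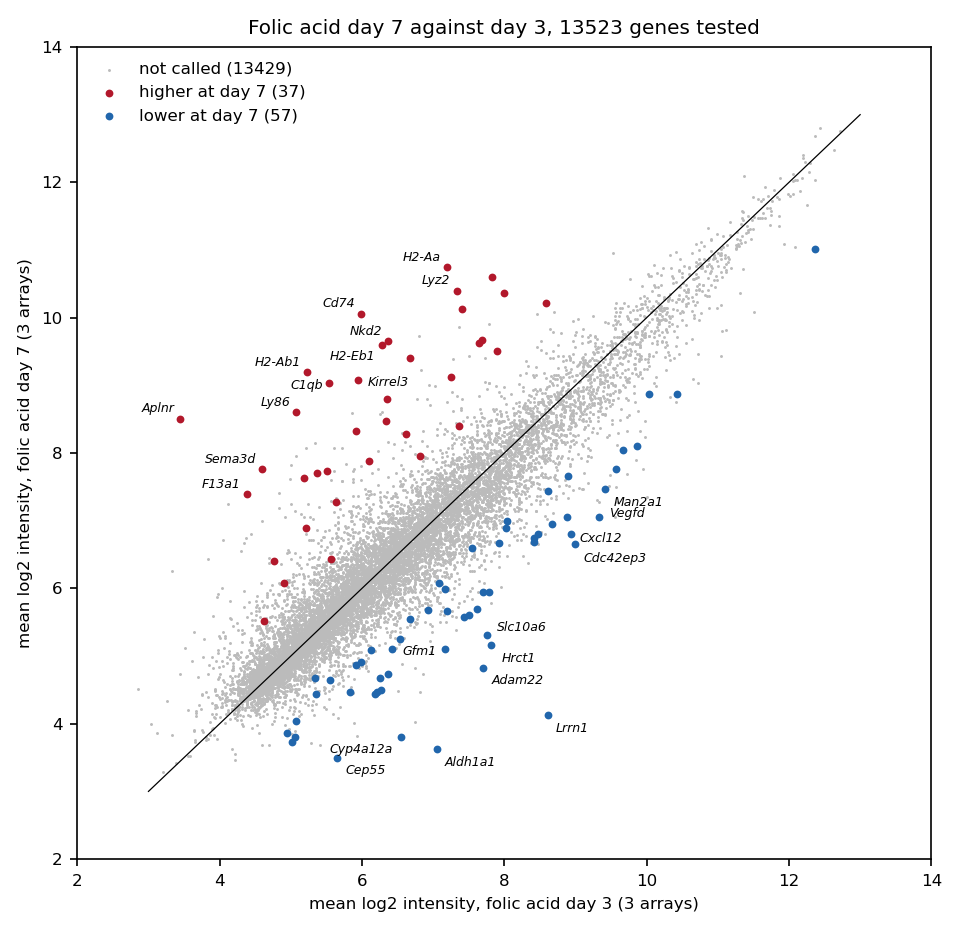
Mean log2 intensity of 13523 genes at folic acid day 7 (vertical axis) against day 3 (horizontal axis), 3 arrays each; the line marks equal values. The 37 genes called higher at day 7 (red) lie above it and the 57 called lower (blue) below it, and the 24 genes labelled are the 12 highest and 12 lowest changes.

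Genes of MHC class II presentation had the largest share of calls of the lists described. Of the 11 genes of this list, all of which were tested, 5 were called higher and none lower at day 7, and the list's median change was 1.35. The 4 core components of the class II complex rose by 3.31 to 4.07 on the log2 scale. H2-Aa, the alpha chain of the I-A molecule, read 7.11, 7.29 and 7.18 at day 3 and 10.72, 10.80 and 10.74 at day 7. It rose 11.8-fold (log2 3.56, SE 0.17), with the smallest adjusted p of all genes in limma (7.22e-07). Its partner, the beta chain H2-Ab1, read 5.17, 5.03 and 5.50 at day 3 and 9.39, 9.41 and 8.78 at day 7, a 15.6-fold rise (log2 3.96, SE 0.35, adjusted p = 0.000149).

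Cd74 is the invariant chain, which occupies the peptide groove until the complex reaches an endosome. It went from 6.00, 5.83 and 6.14 to 10.27, 10.08 and 9.84, a 16.8-fold rise (log2 4.07, SE 0.30, adjusted p = 4.43e-05). H2-Eb1, the beta chain of the I-E molecule, went from 5.99, 6.27 and 6.58 to 9.55, 9.81 and 9.41 (9.91-fold, log2 3.31, SE 0.20, adjusted p = 7.31e-06). For each of the 4 genes the lowest day 7 array stood over 2 log2 units above the highest day 3 array, and the 3 arrays of a day lay close together. Ctss, the cathepsin that degrades the invariant chain, rose 6.80-fold (log2 2.77, SE 0.51, adjusted p = 0.0314), from 7.67, 8.36 and 7.46 to 9.70, 10.88 and 11.20.

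The remaining class II genes changed less. H2-DMa and H2-DMb1, which load the peptide, differed by 1.35 (adjusted p = 0.0936) and 1.07 (adjusted p = 0.444), and neither passed. The modulators H2-Oa and H2-Ob differed by 0.01 each. Ciita, the coactivator that switches class II genes on, read 5.02, 4.94 and 5.14 at day 3 and 5.09, 5.06 and 4.92 at day 7, a difference of -0.01 (adjusted p = 0.991). These values lie at the array medians, and no detection call was used, so a change in a dim transcript could be missed. The other probe sets of H2-Aa were called in the same direction (log2 3.27 and 5.01), and those of H2-Ab1 (1.81 and 1.18) had the same sign without passing.

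The 4 core genes kept their calls whichever of the 6 arrays was left out, with only the 6 arrays compared, and when either marker mean entered as a covariate. Beside the macrophage covariate, H2-Aa stood at 3.44 (adjusted p = 0.00175), Cd74 at 3.83 (0.0137), H2-Eb1 at 2.76 (0.00645) and H2-Ab1 at 3.15 (0.0394). Ctss differed: it lost its call without any 1 of arrays 1, 2, 3, 5 and 6 and fell to 0.91 (adjusted p = 0.648) with that covariate. The macrophage mean was itself higher on every day 7 array than on every day 3 array. Its part in the class II differences therefore cannot be told apart from that of the day. In uninjured kidney the 4 core genes had means of 6.61, 5.78, 6.57 and 6.65 for H2-Aa, H2-Ab1, Cd74 and H2-Eb1. At folic acid day 14 they stood at 11.02, 9.83, 10.54 and 10.19, and in UUO at 9.24, 6.68, 7.70 and 7.57.

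The promoters of the 3 called class II list members with the smallest p that the RefSeq promoter table holds are printed to show the elements near their start sites; Cd74 and H2-Ab1 are not in it. Each spans 250 bases before to 50 after the start, on build GRCm38.p6, read 5′ to 3′ on the gene's strand. H2-Aa lies at chr17:34287774-34288073 on the minus strand, H2-Eb1 at chr17:34305617-34305916 on the plus strand and Ctss at chr3:95526536-95526835 on the plus strand. Capitals mark matches on either strand to CCAAT (the NF-Y box), to ACNGATG (the end of the class II X box, bound by the RFX complex; this motif was added after the data were seen) and to GAGGAAG (a PU.1 site); no matches overlapped.
H2-Aa: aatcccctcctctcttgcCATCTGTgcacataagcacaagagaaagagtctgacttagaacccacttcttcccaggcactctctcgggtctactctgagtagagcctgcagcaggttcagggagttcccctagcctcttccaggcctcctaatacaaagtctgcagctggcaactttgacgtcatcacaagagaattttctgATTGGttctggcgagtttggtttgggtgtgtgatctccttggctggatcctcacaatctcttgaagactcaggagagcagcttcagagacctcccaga
H2-Eb1: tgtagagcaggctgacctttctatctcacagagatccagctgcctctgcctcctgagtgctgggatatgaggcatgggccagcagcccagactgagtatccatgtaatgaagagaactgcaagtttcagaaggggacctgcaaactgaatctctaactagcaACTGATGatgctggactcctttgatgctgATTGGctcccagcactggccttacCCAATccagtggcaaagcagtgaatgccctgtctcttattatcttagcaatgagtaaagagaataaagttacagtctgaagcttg
Ctss: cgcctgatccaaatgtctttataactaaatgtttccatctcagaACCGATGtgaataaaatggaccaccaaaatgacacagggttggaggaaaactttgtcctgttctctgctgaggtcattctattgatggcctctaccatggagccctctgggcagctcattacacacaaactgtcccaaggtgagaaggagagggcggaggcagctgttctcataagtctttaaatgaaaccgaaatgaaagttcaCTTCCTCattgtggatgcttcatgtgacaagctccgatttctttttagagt

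In the H2-Eb1 promoter the X box end stands at positions -88 to -82 from the start site and a reversed CCAAT box at -59 to -55. In H2-Aa a reversed CCAAT box stands at -48 to -44. The letters ACNGATG match there only far upstream and reversed, at -232 to -226. Variants of the X box were not searched, so a box with other letters would be missed. Ctss holds a match to ACNGATG at -206 to -200 and a reversed PU.1 match at the start site. Of the 8 genes of the class II list in the promoter table, 7 hold a CCAAT box and 6 a match to ACNGATG. Among all 32851 promoters of this length 37.4% hold CCAAT, 9.85% ACNGATG and 13.6% GAGGAAG. A match describes letters in the window and does not show that a factor was bound.

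Macrophage markers were also among the genes called higher. Of 25 monocyte and macrophage markers tested, 3 were called higher and none lower, and the median change was 1.88. The day 7 values lay entirely above the day 3 values for 18 of the 25, against 6.39% of all genes. The mean of the list was 5.67, 5.85 and 5.91 at day 3 and 6.78, 7.61 and 7.95 in arrays 4, 5 and 6. In uninjured kidney it was 5.21 to 5.27. All 3 day 7 arrays thus stood above all 3 day 3 arrays, by an amount that differed between them.

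Lyz2, the lysozyme of myeloid cells, went from 7.29, 7.49 and 7.21 to 10.11, 10.41 and 10.66, an 8.37-fold rise (log2 3.06, SE 0.51, adjusted p = 0.0199). C1qb, a chain of complement C1q that tissue macrophages secrete, went from 5.36, 5.89 and 5.38 to 8.22, 9.32 and 9.59 (log2 3.50, SE 0.66, adjusted p = 0.0353). Fcer1g, the signalling chain of Fc receptors, went from 7.04, 8.00 and 8.00 to 8.97, 10.15 and 9.90 (log2 1.99, SE 0.38, adjusted p = 0.0353). In all 3 genes array 4 was the lowest of the day 7 arrays. The call of Lyz2 ended without any 1 of arrays 1, 2, 3 and 5, and those of C1qb and Fcer1g without any 1 of arrays 1, 2, 3, 5 and 6 and in the fit of the 6 arrays alone. Tyrobp (log2 2.50, adjusted p = 0.0666), Ms4a7 (2.36, 0.0525), C1qa (2.85, 0.0548), C1qc (2.93, 0.0779) and Ptprc, the pan-leukocyte phosphatase CD45 (3.13, 0.153), did not pass. Csf1r, the receptor that macrophages need to survive, differed by 0.88 (adjusted p = 0.189) and the macrophage surface gene Adgre1 by 1.50 (adjusted p = 0.163).

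Among called genes outside the list, several are known from myeloid cells. Ly86, which pairs with the Toll-like receptor homologue RP105, went from 5.12, 4.90 and 5.22 to 8.29, 8.78 and 8.74, an 11.5-fold rise (log2 3.52, SE 0.39, adjusted p = 0.0014). F13a1, the coagulation factor XIII subunit of resident macrophages, went from 4.46, 4.56 and 4.14 to 5.44, 7.78 and 8.94 (log2 3.00, SE 0.61, adjusted p = 0.0461). Its day 7 arrays were far apart, with array 6 highest, and at day 14 its mean was 4.25. Its call ended without any 1 of arrays 1, 2, 3, 5 and 6, in the fit of the 6 arrays alone, after quantile normalization, with robust variance and when dim genes were tested too. Outside day 7 its values lay below the level required of tested genes, so it entered the test through day 7 alone. Chosen after their values were seen, Fcrls (log2 2.23), Cd52 (2.41), the lysosomal membrane gene Laptm5 (1.78) and the scavenger receptor Stab1 (1.67) were called higher too. Bcl2a1a (2.34) has near-identical copies that its probe set was not tested to separate.

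Other myeloid lists held few calls. Plac8, a monocyte gene, read 10.07, 9.57 and 10.00 at day 3 and 8.66, 9.60 and 9.16 at day 7 (log2 -0.74, adjusted p = 0.521). Of 10 monocyte and inflammatory macrophage genes none passed in limma (0 at an unadjusted p under 0.05), with a median of 0.23. Of 15 resident and repair macrophage genes 1 passed, C1qb, with a median of 0.41 and 7 at an unadjusted p under 0.05. No dendritic cell (7 tested), lymphocyte (10) or neutrophil (8) marker passed in limma, with medians of 0.09, 0.12 and 0.14; at an unadjusted p under 0.05 there were 0, 0 and 2. When the macrophage mean entered as a covariate, 16 of the 94 called genes still passed, among them the 4 core class II genes. Lyz2 (log2 2.34), Ly86 (2.16), C1qb (0.55) and F13a1 (1.03) did not, and for Lyz2, C1qb and Fcer1g, members of that mean, some of the shrinking is built in. The part of the macrophage transcripts in the differences, those of class II included, was not tested further.

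**Figure D2:**
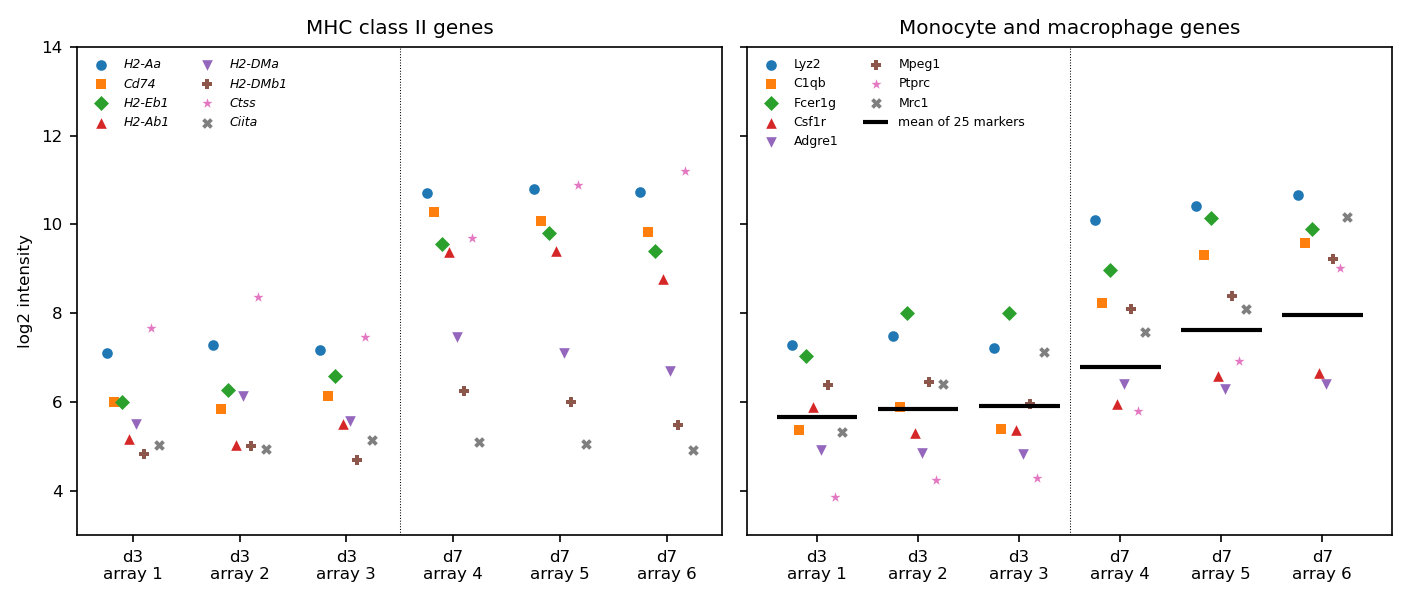
Log2 intensity on each of the 6 arrays (horizontal axis, d3 for day 3 and d7 for day 7) for 8 MHC class II genes and 8 monocyte and macrophage genes; each symbol is 1 gene on 1 array and black bars are the mean of 25 macrophage markers. H2-Aa, Cd74, H2-Eb1 and H2-Ab1 sit higher on all 3 day 7 arrays than on the day 3 arrays. The macrophage mean does so too (5.67 to 5.91 at day 3, 6.78 to 7.95 at day 7), and Ciita stays near 5.

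Complement genes overlap the macrophage list in C1q. All 16 tested differed by more than 0 (the lowest by 0.01), against 48.6% of all genes. Their median was 0.79, and 2 were called: C1qb and C3ar1, the receptor of the C3a fragment (log2 0.89, SE 0.17, adjusted p = 0.0348). C3ar1 read 4.63, 4.69 and 4.57 at day 3 and 5.26, 5.93 and 5.37 at day 7, and another of its probe sets gave 2.22 (adjusted p = 0.0193). Of the interferon response list, none of 24 genes passed in limma (3 higher and 0 lower at an unadjusted p under 0.05), with a median of 0.26. Rsad2 came nearest, from 5.44, 5.28 and 5.38 to 6.26, 6.52 and 7.83 (log2 1.50, SE 0.33, adjusted p = 0.0666).

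Cell division genes were among those called lower. Of 33 mitosis and cytokinesis genes tested, 5 were called lower at day 7 and none higher, and the median was -0.64. The day 7 values lay entirely below the day 3 values for 16 of the 33, against 7.85% of all genes, and 17 were lower at an unadjusted p under 0.05. The mean of the list was 6.08, 6.28 and 6.11 at day 3 and 5.42, 5.54 and 5.18 at day 7, against 5.15 to 5.22 in uninjured kidney.

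Birc5, the survivin subunit of the chromosomal passenger complex, read 6.51, 7.79 and 7.30 at day 3 and 5.48, 5.71 and 5.78 at day 7, 2.91-fold lower (log2 -1.54, SE 0.26, adjusted p = 0.0214). The mitotic cyclin Ccnb2 went from 6.18, 6.97 and 5.59 to 4.65, 4.71 and 4.67 (log2 -1.57, SE 0.28, adjusted p = 0.0256). Anln, the anillin scaffold of the cleavage furrow, went from 5.72, 6.42 and 5.36 to 4.97, 4.15 and 4.28 (log2 -1.36, SE 0.26, adjusted p = 0.0364). For Ccnb2 the day 7 arrays sat close together, near the uninjured mean of 4.60, while the day 3 arrays spread over more than 1 unit.

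The other called members were Racgap1, a protein of the spindle midzone (log2 -0.91, adjusted p = 0.0383), and the mitotic kinesin Kif20a (log2 -1.67, adjusted p = 0.0412). Cep55, which brings the abscission machinery to the midbody and is not in the list, went from 5.46, 6.49 and 5.01 to 3.61, 3.28 and 3.62, 4.45-fold lower (log2 -2.15, SE 0.29, adjusted p = 0.00482). Outside day 3 the values of Cep55 lay below the level required of tested genes, so it entered the test through day 3 alone. Its call held whichever of the 6 arrays was left out, and ended in the fit of the 6 arrays alone and beside the macrophage covariate (log2 -1.99, adjusted p = 0.129). Mki67, the gene of the Ki-67 antigen, read 8.83, 9.02 and 7.85 at day 3 and 6.91, 6.80 and 7.51 at day 7; the difference of -1.49 (SE 0.75) did not pass (adjusted p = 0.504). Aurka (0.11), Ndc80 (0.01) and Foxm1 (0.06) had differences near 0.

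**Figure D3:**
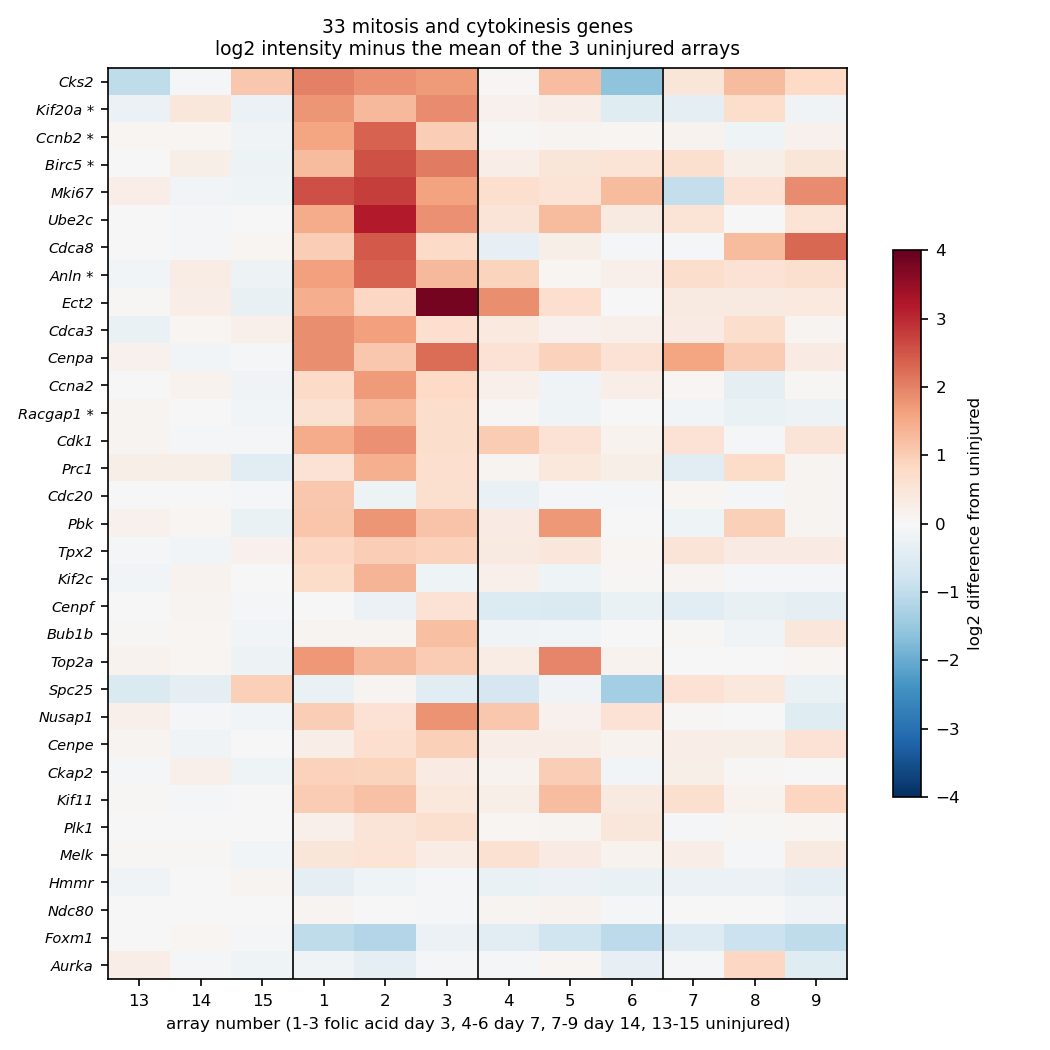
Log2 intensity of 33 mitosis and cytokinesis genes (rows, ordered by change) on 12 arrays (columns) minus the mean of the 3 uninjured arrays, red above and blue below it; an asterisk marks the 5 genes called lower at day 7. Most rows are redder in the 3 day 3 arrays than in the day 7, day 14 and uninjured arrays.

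The calls of the division genes were less steady than those of the 4 core class II genes. Birc5, Ccnb2 and Anln each lost it without any 1 of 4 arrays, Racgap1 without any 1 of 5 and Kif20a without any 1 of 6, and none of the 5 passed with the macrophage covariate or with only the 6 arrays compared. Their direction held under each of these settings. DNA replication genes had a median of -0.04 over 28 tested, and 1 was called. This was Rrm2, the ribonucleotide reductase subunit of S phase, from 8.14, 7.89 and 7.31 to 6.47, 6.07 and 5.27 (log2 -1.84, SE 0.37, adjusted p = 0.0412), and its other probe set gave -0.38 (adjusted p = 0.698). The helicase subunits Mcm2, Mcm3, Mcm5, Mcm6 and Mcm7 had differences between 0.09 and 0.58 and Mcm4 one of -0.61 (adjusted p = 0.113), and none passed.

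The promoters of the 3 called division genes with the smallest p follow, from the same table and build and with the same span. Birc5 lies at chr11:117848987-117849286 on the plus strand, Ccnb2 at chr9:70421505-70421804 on the minus strand and Anln at chr9:22389157-22389456 on the minus strand. Capitals mark matches on either strand to TTTGAA (the cell cycle homology region, or CHR, of late cell cycle genes), CCAAT and GAGGAAG; the E2F motifs TTCCCGC and TTTGGCG were also searched.
Birc5: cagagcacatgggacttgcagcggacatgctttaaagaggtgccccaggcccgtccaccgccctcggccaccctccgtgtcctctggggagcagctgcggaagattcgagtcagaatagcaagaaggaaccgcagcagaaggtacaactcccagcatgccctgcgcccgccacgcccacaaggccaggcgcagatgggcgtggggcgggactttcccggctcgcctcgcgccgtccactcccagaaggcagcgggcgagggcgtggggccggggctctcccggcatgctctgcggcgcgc
Ccnb2: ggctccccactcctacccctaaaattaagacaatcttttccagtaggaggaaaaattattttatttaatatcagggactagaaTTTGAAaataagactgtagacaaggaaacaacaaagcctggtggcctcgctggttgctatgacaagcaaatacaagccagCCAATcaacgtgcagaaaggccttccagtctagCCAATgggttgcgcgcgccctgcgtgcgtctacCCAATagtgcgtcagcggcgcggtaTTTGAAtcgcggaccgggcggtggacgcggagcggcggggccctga
Anln: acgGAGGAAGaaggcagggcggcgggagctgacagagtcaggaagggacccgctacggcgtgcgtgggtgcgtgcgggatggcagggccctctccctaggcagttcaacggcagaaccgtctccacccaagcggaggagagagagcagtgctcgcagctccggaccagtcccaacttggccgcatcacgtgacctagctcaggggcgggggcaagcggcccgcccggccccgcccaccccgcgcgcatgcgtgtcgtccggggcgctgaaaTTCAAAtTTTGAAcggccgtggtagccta

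Ccnb2 holds CCAAT boxes at -87, -54 and -21 and a CHR at 5 to 10, with a second CHR at -167. Anln holds a CHR at 29 to 34 and another on the opposite strand at 22 to 27, and Birc5 no match in this window. Of 28 tested genes of the mitosis list in the table, 23 hold a CHR and 22 a CCAAT box, where 17.9% and 37.4% of all promoters do. None of the 8 class II genes holds a CHR and none of the 28 mitosis genes holds the X box end. TTCCCGC was found in 0 and TTTGGCG in 1 of the 28, against 4.6% and 1.56% of all promoters. These promoter counts cover only tested members, and both lists were chosen for their share of calls. Array values therefore entered the choice of genes, while the matches were read from sequence alone.

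The largest single rise was that of Aplnr, the apelin receptor of endothelial cells. It read 3.31, 3.39 and 3.64 at day 3, among the lowest values on the array, and 8.49, 8.72 and 8.31 at day 7, 33.3-fold higher (log2 5.06, SE 0.88, adjusted p = 0.023). Both groups were tight, while the fit pools the spread of all groups, and over the day 14 and UUO arrays Aplnr ran from 3.42 to 8.66. Its call ended without any 1 of arrays 1, 2, 3, 4 and 5 and, at log2 3.39, beside the macrophage covariate (adjusted p = 0.39). Its other probe set differed by 0.19 (adjusted p = 0.763), so the probe sets disagree. No other of the 18 endothelial genes was called, and their median was 0.57. The defining genes Cdh5 (log2 1.02, adjusted p = 0.517), Pecam1 (0.57, 0.562) and Kdr (0.58, 0.436) did not pass, and the list mean was 6.44 to 6.50 at day 3 and 6.81 to 7.36 at day 7.

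Nkd2, an inhibitor of Wnt signalling that binds dishevelled, went from 6.25, 6.42 and 6.44 to 9.33, 10.26 and 9.37, a 9.71-fold rise (log2 3.28, SE 0.26, adjusted p = 6.38e-05). Its call held without each of the 6 arrays, with only the 6 arrays and with both covariates, and its other probe set was called as well (log2 2.30, adjusted p = 0.0172). It stood at 5.81 in uninjured kidney and 7.71 at day 14. Few other Wnt genes came near a call. Of 22 genes tested Nkd2 alone was called, the median was 0.01, and Axin2, a common target of the pathway, differed by 0.86 (adjusted p = 0.509). Wnt4 (2.81, adjusted p = 0.134) and the receptor Fzd7 (-1.48, adjusted p = 0.0936) did not pass.

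Sema3d, a secreted guidance protein, went from 4.38, 5.48 and 3.95 to 7.21, 7.79 and 8.29 (8.94-fold, log2 3.16, SE 0.37, adjusted p = 0.00191). Kirrel3, an adhesion protein related to nephrin, went from 6.13, 4.90 and 6.79 to 9.53, 9.36 and 8.34 (log2 3.13, SE 0.56, adjusted p = 0.0246). The day 3 arrays of both genes spread widely, and absence of overlap between the days was a condition for naming them. Sema3d kept its call without each of the 6 arrays but not beside the macrophage covariate (adjusted p = 0.0977), and its other probe set gave 1.05 (adjusted p = 0.239), while Kirrel3 lost it without any 1 of arrays 1, 2, 4 and 5.

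Few matrix genes were called. None of 18 fibrillar and associated collagens was called in limma, with a median of -0.28 (2 higher and 3 lower at an unadjusted p under 0.05). Col6a1, 1 of the 2 with the smallest p, went from 10.94, 11.03 and 11.15 to 9.75, 10.21 and 10.62 (log2 -0.85, SE 0.26, adjusted p = 0.209). Col3a1 differed by -0.22 (SE 0.42, adjusted p = 0.92) and fibronectin (Fn1) by 0.26 (SE 0.33, adjusted p = 0.859). Basement membrane genes had no call among 15 in limma (1 in each direction at an unadjusted p under 0.05), and collagen processing genes none among 17 (2 higher and 3 lower).

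Of 31 matrix glycoproteins and proteoglycans 2 were called, both higher, and the median was 0.14. Ltbp2, a microfibril protein of the family that binds latent TGF-beta, went from 6.25, 6.45 and 7.30 to 9.82, 9.24 and 9.14 (6.65-fold, log2 2.73, SE 0.34, adjusted p = 0.00326). Fbn2, the fibrillin of developing microfibrils, went from 6.61, 6.17 and 6.24 to 8.28, 8.40 and 8.72 (4.37-fold, log2 2.13, SE 0.40, adjusted p = 0.0355). The arrays of each day were well apart for both, but the call of Fbn2 ended without any 1 of the 6 arrays, whereas that of Ltbp2 held in each case. Both calls ended beside the macrophage covariate (log2 0.86, adjusted p = 0.629 for Fbn2, and log2 2.16, adjusted p = 0.152 for Ltbp2). Mfap4, another microfibril gene, differed by 1.94 without passing (adjusted p = 0.0614). Postn, the matricellular protein periostin, read 9.33, 9.66 and 9.68 at day 3 and 7.84, 7.79 and 5.51 at day 7 (log2 -2.51, SE 0.85, adjusted p = 0.249). The groups did not overlap, and array 6 lay over 2 units below the other day 7 arrays.

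Mmp2, which cleaves gelatin and basement membrane collagen, went from 6.63, 6.13 and 6.29 to 9.14, 8.72 and 8.53 (5.45-fold, log2 2.45, SE 0.36, adjusted p = 0.0106). It was the 1 call among 23 matrix proteases and inhibitors, whose median was 0.11. Its uninjured mean was 6.46. Its call held without each of the 6 arrays and ended beside the macrophage covariate (log2 2.21, adjusted p = 0.184). The inhibitor Timp1 differed by -0.05 (adjusted p = 0.985).

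Contractile genes held 1 call. Of 21 tested, 19 lay below 0, the median was -0.33, and the call was Synpo2, an actin-binding protein of the Z disc, from 6.79, 6.63 and 6.21 to 5.27, 5.02 and 5.47 (log2 -1.29, SE 0.20, adjusted p = 0.0151). Acta2, the smooth muscle actin of myofibroblasts, read 12.10, 12.18 and 11.97 at day 3 and 11.13, 11.10 and 10.92 at day 7, without overlap. The difference of -1.03 (SE 0.23) did not pass (adjusted p = 0.0666), and both days lay above the 8.29 of uninjured kidney. Ppp1r14a, an inhibitor of myosin phosphatase chosen after its value was seen, was called lower (log2 -1.74, adjusted p = 0.0214). None of 11 pericyte and smooth muscle markers passed in limma (0 higher and 2 lower at an unadjusted p under 0.05), with a median of -0.57.

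**Figure D4:**
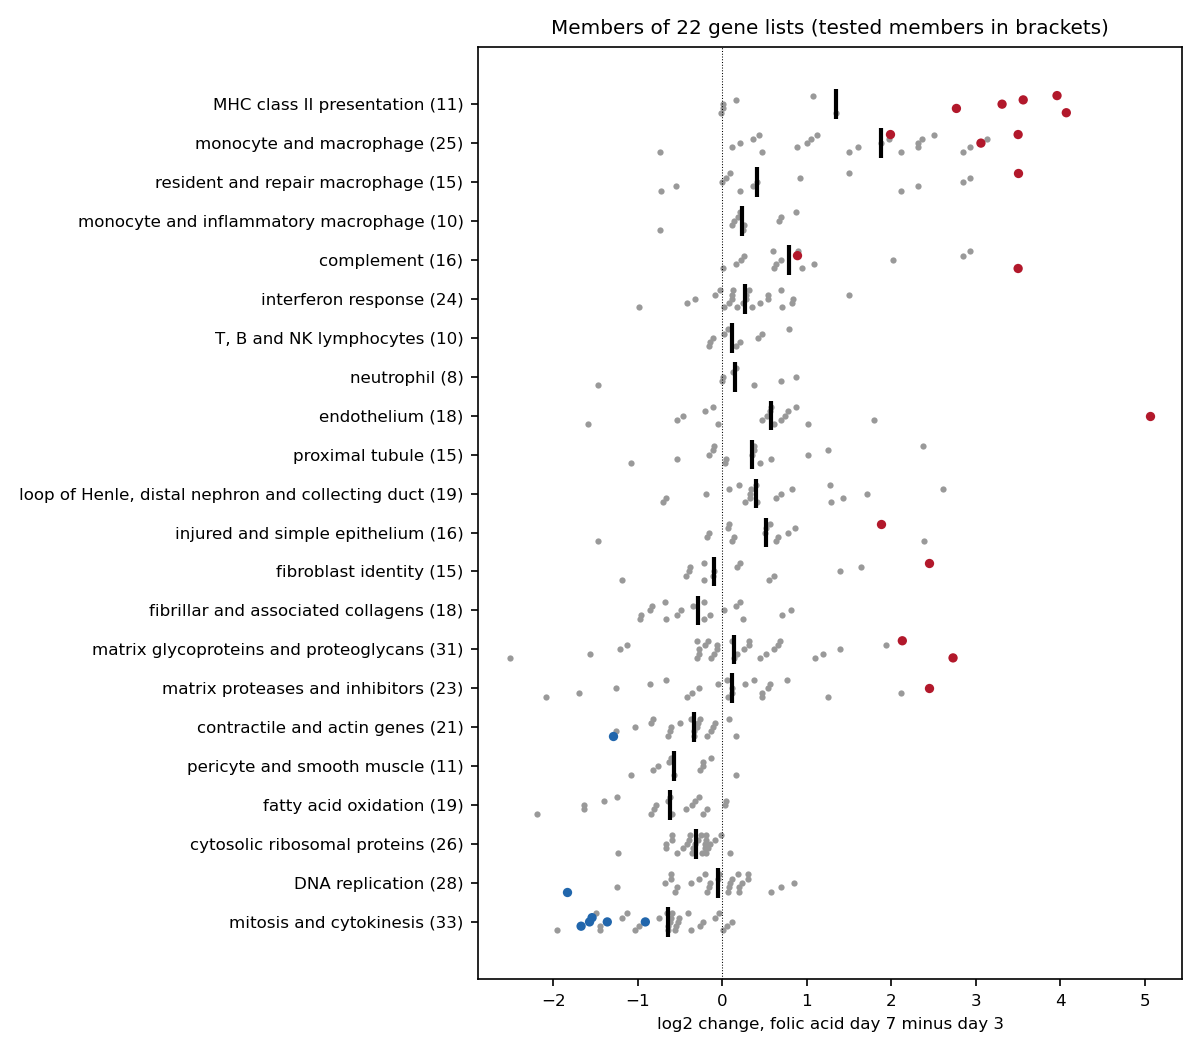
Log2 change at day 7 against day 3 (horizontal axis) of every tested member of 22 gene lists (rows, with the number tested); grey points were not called, red points were called higher and blue points lower, and black bars are list medians. The calls of the class II and macrophage lists lie to the right (medians 1.35 and 1.88) and those of the mitosis list to the left (median -0.64).

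The largest fall was that of Lrrn1, a leucine-rich repeat protein of the cell surface. It read 9.47, 8.39 and 7.97 at day 3 and 3.19, 3.46 and 5.73 at day 7, 22.3-fold lower (log2 -4.48, SE 0.58, adjusted p = 0.00426). Arrays 4 and 5 lay at the uninjured mean of 3.33 and array 6 above it. Outside day 3, Lrrn1 lay above 3.68 only on array 6 and on UUO array 12 (4.60). These were too few for it to be tested without day 3. Aldh1a1, an enzyme that makes retinoic acid, went from 7.84, 6.69 and 6.61 to 3.50, 3.90 and 3.47, 10.8-fold lower (log2 -3.43, SE 0.29, adjusted p = 0.000102), and was at 3.46 in uninjured kidney. Outside day 3 the values of Aldh1a1 lay below the level required of tested genes, so it entered the test through day 3 alone. It was the 1 call among 12 retinoid genes, whose median was -0.04. Its relative Aldh1a2 differed by -0.48 (adjusted p = 0.436).

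Vegfd, a growth factor for lymphatic vessels, went from 9.72, 9.13 and 9.13 to 6.95, 7.01 and 7.19 (4.86-fold lower, log2 -2.28, SE 0.28, adjusted p = 0.00265). Cyp4a12a, a fatty acid hydroxylase with a near-identical neighbour that the probe set was not tested to separate, went from 6.11, 6.91 and 6.62 to 4.00, 3.88 and 3.54 (log2 -2.74, SE 0.25, adjusted p = 0.000226). Both kept their calls without each of the 6 arrays, with only the 6 arrays and with both covariates. Their uninjured means were 6.88 and 4.33. Outside day 3 the values of Cyp4a12a lay at 4.42 or below, apart from 4.80 on uninjured array 15. These were too low for it to be tested without day 3.

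Cxcl12, the chemokine that retains leukocytes through CXCR4, went from 9.12, 8.64 and 9.06 to 6.11, 7.45 and 6.88 (4.37-fold lower, log2 -2.13, SE 0.40, adjusted p = 0.0353). It was the 1 call among 26 chemokine and cytokine genes, of which 22 lay above 0 (median 0.39). One of its other probe sets gave -1.32 and another 0.01, neither called, and its call ended without any 1 of arrays 1, 2, 3, 4 and 6. Adam22, an inactive metalloprotease that serves as a receptor for LGI proteins, went from 7.91, 8.24 and 6.95 to 4.37, 4.93 and 5.19 (log2 -2.87, SE 0.40, adjusted p = 0.00673). Its other probe set gave -0.31 (adjusted p = 0.622), and its call ended in the fit of the 6 arrays alone and beside the macrophage covariate (adjusted p = 0.116).

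The other members of the 12 lowest changes were less steady. Hrct1 (log2 -2.65), the steroid sulfate transporter Slc10a6 (-2.43), the Cdc42 effector Cdc42ep3 (-2.33), the mitochondrial elongation factor Gfm1 (-2.06) and the Golgi mannosidase Man2a1 (-1.95) had adjusted p-values from 0.0199 to 0.0383. Each lost its call without any 1 of at least 4 arrays. Gfm1 differed from the rest in its level elsewhere, since day 3 (6.88, 7.07 and 7.54) was near uninjured kidney (6.85) and day 7 (4.30, 6.07 and 4.95) was below it.

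Single genes of the remaining signalling lists were called lower. Tgfbr3, the TGF-beta coreceptor betaglycan, went from 8.79, 8.71 and 8.50 to 6.16, 7.14 and 7.55 (log2 -1.72, SE 0.33, adjusted p = 0.0364), and its other probe set was called too (-1.52). Agtr1a, the angiotensin II receptor, went from 9.04, 8.76 and 8.87 to 7.67, 7.47 and 7.83 (log2 -1.23, SE 0.25, adjusted p = 0.0425), below the uninjured mean of 9.39. Lpar1, the lysophosphatidic acid receptor, chosen after its value was seen, was lower as well (log2 -1.67, adjusted p = 0.0238). Tgfbr3 was the 1 call among 27 TGF-beta, activin and BMP genes (median -0.13) and Agtr1a that among 6 of the renin-angiotensin system. Hpgd, which inactivates prostaglandins, went from 9.26, 8.58 and 8.80 to 6.50, 7.18 and 7.50 (log2 -1.82, SE 0.33, adjusted p = 0.0261). Each of these 4 lost its call without any 1 of at least 4 arrays.

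**Figure D5:**
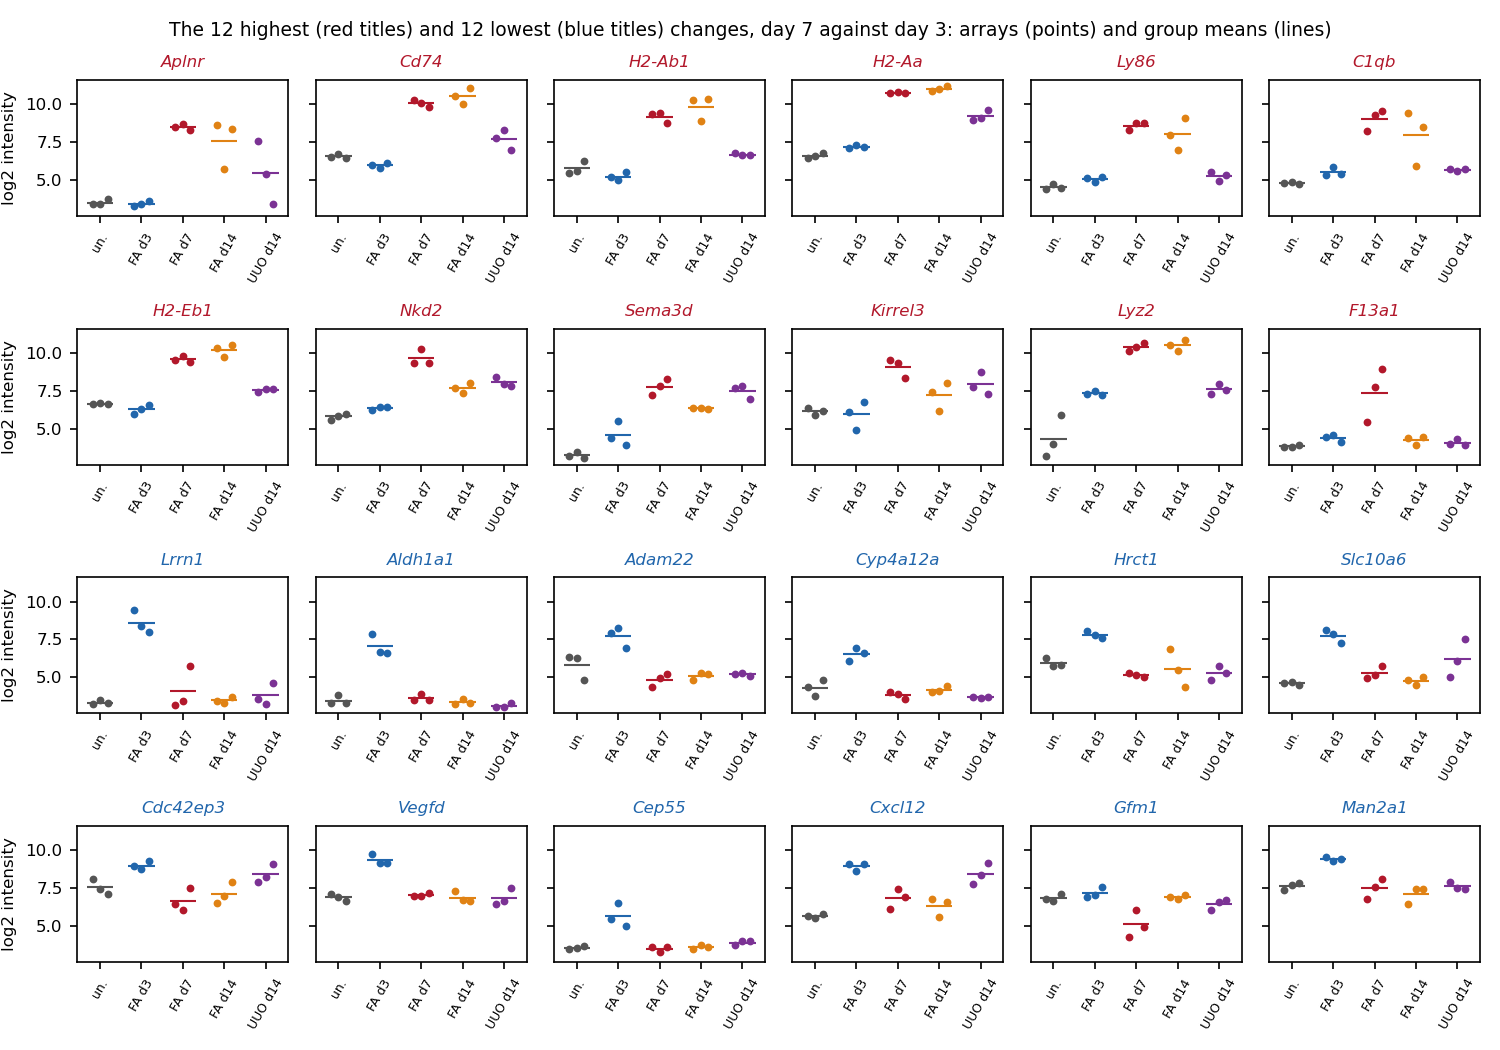
Log2 intensity of the 12 highest (red titles) and 12 lowest (blue titles) changes on the 15 arrays, by group (un., uninjured; FA d3, d7 and d14, folic acid; UUO d14); points are arrays and lines group means. The day 3 and day 7 points of each gene do not overlap, which was a condition of the choice. Aldh1a1, Vegfd and Cep55 stand highest at day 3 and near the uninjured level in the later groups. Lrrn1 does so too, apart from day 7 array 6 (5.73) and UUO array 12 (4.60).

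Epithelial genes were also compared, since tubule transcripts varied. Of 16 injured and simple epithelium genes 1 was called, the transcription factor Sox4, from 7.48, 6.65 and 7.61 to 9.24, 9.55 and 8.60 (log2 1.88, SE 0.29, adjusted p = 0.0151), with 2 more of its probe sets called (2.03 and 2.34) and 1 of opposite sign (-0.28). The list's median was 0.51, with 13 genes above 0 and 3 below. Havcr1, the tubule injury marker KIM-1, read 5.39, 7.49 and 7.62 at day 3 and 11.04, 9.50 and 7.12 at day 7 (log2 2.39, SE 0.85, adjusted p = 0.281). Lcn2, another member, went the other way without overlap, from 9.03, 9.99 and 9.75 to 7.86, 8.94 and 7.56 (log2 -1.47, SE 0.63). It did not pass either (limma adjusted p = 0.4). No proximal tubule (15 tested, median 0.35) or distal nephron (19 tested, median 0.40) marker passed in limma, with 1 higher in the first and 4 higher and 2 lower in the second at an unadjusted p under 0.05. All 94 called genes kept their calls when the proximal tubule mean entered as a covariate.

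Of the 94 calls, 21 held whichever of the 6 arrays was left out, 13 higher and 8 lower at day 7. The 13 were Cd74, H2-Ab1, H2-Aa, Ly86, H2-Eb1, Nkd2, Sema3d, Ltbp2, Mmp2, Ptn, Fcrls, Hspa4 and Ivns1abp, and the 8 were Lrrn1, Aldh1a1, Adam22, Cyp4a12a, Vegfd, Cep55, Npy and Zbtb16. Of these 21, only Cd74, H2-Aa, H2-Ab1, H2-Eb1, Nkd2, Cyp4a12a and Vegfd also held both in the fit of the 6 arrays alone and beside the macrophage covariate. Aldh1a1 and Cep55 had entered the test through day 3 alone, and Lrrn1 and Cyp4a12a would not have entered it without day 3. Of other calls described, C3ar1 was lost without any 1 of 4 arrays, Rrm2 without any 1 of 5, Synpo2 without any 1 of 3 and Sox4 without array 5. In all, 38 calls were each lost without any 1 of at least 5 arrays. Of the 38 called genes with another tested probe set, 32 had all probe sets of the same sign and none had another called in the opposite direction.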

How the data were processed

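The deposited values of the 15 arrays are on the log2 scale; the submitters' processing notes name RMA, affy and limma, without roles or versions. They were not normalized again, and folds of dim genes are compressed.

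Of 45141 probe sets, 28898 carried 1 gene name in the annotation, 551 several and 15692 had none there. Genes above the 40th percentile of an array on at least 3 of the 15 were tested, and 3574 were left out as dim. The 5 group means were estimated together in limma 3.58.1 (R 4.3.3; lmFit, eBayes, 10 residual degrees of freedom), with day 7 minus day 3 as a 2-sided contrast. The script was tested on simulated data.

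The comparison, the 50 gene lists (997 genes, 808 tested) and the panel were chosen with earlier results of these data known. Named were the 12 highest and 12 lowest called changes without overlap, leaving out provisional symbols, 18 panel genes and, per list, up to 5 called members or the 2 with the smallest p. Lists were described by counts and medians. Alternatives covered normalization, variance settings, filters, probe sets, marker covariates and leaving out each array. Plots used matplotlib 3.10.9.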

Additional observations from a re-analysis of the deposited data

How the results depend on the processing

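Of the settings tried other than leaving out an array, 9 left the count of 94 called genes (37 higher and 57 lower) within 1.5 times: quantile normalization, median centring, trend and robust variance, array weights, testing dim genes too, a stricter filter (60th percentile), the mean of probe sets and a fold of at least 2. The count fell to 16 (13 higher, 3 lower) in a fit of the 6 arrays alone, 51 (18 and 33) beside the macrophage covariate and 20 (12 and 8) at a threshold of 0.01, and rose to 170 (70 and 100) beside the proximal tubule covariate. Leaving out 1 array gave 31 to 180 calls, 15 to 77 higher and 16 to 103 lower, the fewest without day 7 array 5 and the most without day 7 array 6; the cause was not tested. No called gene changed sign under any of these settings. Centring moved the median change of all genes by less than 0.1. No paired analysis was possible because the running numbers are not shared between groups. With 3 arrays a group, precision is limited by their number.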

Other observations

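The following genes were chosen after their values were seen, and no set was tested. Of 13 genes tested that are known to respond to glucocorticoids, 3 were called lower at day 7 and none higher. Zbtb16, a zinc finger factor, went from 6.55, 6.27 and 6.46 to 5.22, 5.00 and 5.12 (log2 -1.31, SE 0.14, limma adjusted p = 0.000786), and another of its probe sets gave -3.54; its call ended in the fit of the 6 arrays alone and beside the macrophage covariate (adjusted p = 0.0754). Tsc22d3, the glucocorticoid-induced leucine zipper, went from 9.71, 9.67 and 9.63 to 7.58, 7.82 and 8.70 (log2 -1.63, adjusted p = 0.0364). The metallothionein Mt1 went from 12.40, 12.31 and 12.38 to 10.57, 10.92 and 11.56 (log2 -1.35, adjusted p = 0.0239). Other probe sets gave smaller differences that did not pass, -0.27 and -0.87 for Tsc22d3 and -0.61 for Mt1, and both calls ended without any 1 of arrays 1, 2, 3, 4 and 5. Fkbp5, a cochaperone of the receptor, went from 8.74, 8.67 and 8.66 to 6.54, 6.83 and 7.97 and did not pass (log2 -1.58, adjusted p = 0.0577). In Tsc22d3, Mt1 and Fkbp5 the day 3 arrays lay within 0.1 of one another and array 6 was the nearest day 7 array to them. The receptor gene Nr3c1 differed by -0.21, and Per1, another gene of this kind, by -0.13.

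A few genes were lower at day 3 than at day 7 and in uninjured kidney. Pleiotrophin (Ptn), a heparin-binding growth factor, had a mean of 11.53 in uninjured kidney, read 7.74, 7.81 and 8.42 at day 3 and 11.02, 10.03 and 10.04 at day 7 (log2 2.38, SE 0.33, adjusted p = 0.00673). One of its other probe sets was called as well (log2 2.43) and another gave 0.04. The call of Ptn ended in the fit of the 6 arrays alone. Hspa4, a chaperone of the Hsp110 family, stood at 9.98 in uninjured kidney and went from 7.45, 8.15 and 7.33 to 9.44, 9.49 and 9.92 (log2 1.98, SE 0.24, adjusted p = 0.00267), though 1 of its other probe sets gave -0.09. Its relative Hsph1 went from 6.80, 6.60 and 6.47 to 8.85, 8.00 and 7.99 (log2 1.66, adjusted p = 0.0214), with 8.83 in uninjured kidney. The heat shock genes Hspa8 (log2 0.20) and Hsp90aa1 (-0.01) did not pass, nor did Hspb1, which went from 10.01, 9.66 and 9.51 to 7.95, 8.10 and 7.04 (-2.03, adjusted p = 0.15). The call of Hsph1 ended without any 1 of arrays 1, 2, 3, 4 and 5, and those of Hspa4 and Hsph1 both ended in the fit of the 6 arrays alone and beside the macrophage covariate.

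Lgi2, a secreted ligand of the ADAM22 receptor family, and Adam22 were called in opposite directions. Lgi2 went from 7.78, 6.87 and 7.58 to 9.59, 10.38 and 10.41 (log2 2.72, SE 0.44, adjusted p = 0.0193), while Adam22 was lower at day 7 (log2 -2.87; other probe set -0.31, adjusted p = 0.622). The call of Lgi2 ended without array 2 or array 5, and both calls ended in the fit of the 6 arrays alone and beside the macrophage covariate. The other family members, Lgi1, Lgi3, Lgi4, Adam11 and Adam23, differed by -0.47 to 0.05, and none passed.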
